A study of Mus musculus with 28 samples.

Results

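The genes described here encode the mitochondrial respiratory chain, the ATP synthase and some of their assembly factors, measured as mRNA in mouse testis. They were chosen by name: every gene whose symbol starts with Nduf, Uqcr, Atp5 or Cox followed by a digit from 4 to 8, plus Sdha, Sdhb, Sdhc and Sdhd, without processed pseudogenes (7 rows ending in -ps). This gave 95 of 34839 rows of the gene table, for 93 genes. Uqcrc1 and Ndufs3 each stand in 2 rows with identical values in every library, so each was counted once.

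The respiratory chain passes electrons from NADH and succinate to oxygen through complexes I to IV in the inner mitochondrial membrane and pumps protons out of the matrix. Complex V, the ATP synthase, uses the returning protons to make ATP. Most subunits are encoded in the nucleus, and the others by mitochondrial DNA (mtDNA). Some small nuclear subunits of complex IV, cytochrome c oxidase, exist in tissue forms. Cox6b2, Cox7b2 and Cox8c are forms of male germ cells, next to the widely expressed Cox6b1, Cox7b and Cox8a, and cytochrome c, which carries electrons to complex IV, has a germ cell form encoded by Cyct beside the common Cycs. Spermatogenic cells change their fuel and the shape of their mitochondria as they pass through meiosis and become spermatids.

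The study asks what the domains of PRDM9, an enzyme that methylates histones at sites of meiotic recombination, do in meiosis. Testis mRNA of C57BL/6 mice was sequenced in 2 libraries of Prdm9 knockouts (genotype Prdm9-/-), 2 of Hop2 knockouts (Hop2-/-), and 1 of adult wild type. HOP2 assists strand exchange in meiotic recombination, and spermatocytes of both knockouts are known to stop in meiotic prophase. No age is given for the knockouts, and nothing in the labels ties a library to its own animal. The p-values therefore rest on library-to-library spread, which may be technical. Meiotic double-strand breaks came from 1 testis library of C57BL/6 mice that carry a PRDM9 without the KRAB domain (labelled Prdm9 (K/K)).

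Values are the authors' transcript abundances (TPM) after a rescaling whose factors no source used here gives, since columns sum to between 825459 and 953598 in the knockouts and to 1622660 in wild type. They are scaled to transcript length, so levels of different genes can be compared, and read depth is unknown. Changes are differences of log2(value + 1), tested with limma across all genes whose mean is at least 1, and p-values were adjusted by Benjamini-Hochberg, a gene passing under 0.05. Every comparison with wild type rests on 1 wild-type library, which is assumed to vary like the knockouts, and the comparisons of both knockouts share it.

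Marker genes of testis cell types differed in level between the knockouts and wild type. Of 10 spermatid markers, all were lower in the knockouts, and their sum was 7.75% of the library total in wild type against 0.0019% to 0.00542% in the knockouts. Prm2 was listed at 0 in Hop2 KO replicate 1. All 8 pachytene spermatocyte markers were lower as well (sum 0.620% against 0.0178% to 0.0235%). All 8 Sertoli markers were higher (0.0914% against 0.573% to 0.942%), as were 6 of 7 Leydig markers (0.363% against 2.90% to 7.68%) and 7 of 7 macrophage markers (0.00542% against 0.0557% to 0.0898%). These counts are of markers that passed on the columns as deposited. Of all 16261 genes tested there, 36.3% passed as higher and 40.5% as lower. In bulk tissue, fewer cells of a type and less RNA per cell cannot be told apart, and the part of these markers in the results below was not tested.

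The germ cell subunits of complex IV were lower in all 4 knockout libraries than in wild type, and their common counterparts were higher in all 4. Cox8c, the germ cell form of the small subunit 8, was 24.6 and 29.9 in the Prdm9 knockouts (Prdm9 KO), 26.2 and 31.9 in the Hop2 knockouts (Hop2 KO) and 1394 in wild type. Its wild-type level was 49.5-fold the mean of the knockouts, and the change was -5.59 (SE 0.18, limma adjusted p = 0.000138). Cox8a, its common counterpart, was 640.3, 512, 697 and 745 in the same order of knockout libraries and 114 in wild type (log2 2.48, SE 0.18, adjusted p = 0.00106). The groups did not overlap for either gene, and each knockout library had more Cox8a than Cox8c whereas wild type had more Cox8c.

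Cox6b2 and Cox6b1 encode forms of a subunit on the intermembrane side of complex IV. Cox6b2 was 72.9 and 135 (Prdm9 KO), 78.7 and 152 (Hop2 KO), and 1337 in wild type (log2 -3.67, SE 0.54, adjusted p = 0.00674). Replicate 2 of each genotype was above replicate 1, and no knockout library exceeded 11.4% of the wild-type level. Cox6b1 was 353, 338 and 370, 461 in the 2 genotypes and 96.9 in wild type (log2 1.95, SE 0.16, adjusted p = 0.00153). Cox7b2 was 24.3, 27.95, 29.4 and 32.6 in the knockouts and 164 in wild type (log2 -2.49, SE 0.13, adjusted p = 0.000489). Cox7b, which lies on the X chromosome, was 112, 143, 119 and 208 against 23.4 (log2 2.54, SE 0.37, adjusted p = 0.00648).

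The ratio of a germ cell form to its common counterpart is taken within a library, so multiplying a column by a factor leaves it unchanged. Quantile normalization can change it. The log2 ratios below were taken after adding 1 to each value, so they keep some dependence on the scale. In wild type the germ cell form made up 93.2% of the pair Cox6b2 and Cox6b1, 87.5% of Cox7b2 and Cox7b, and 92.4% of Cox8c and Cox8a. In the knockouts these shares were 17.1% to 28.5%, 13.5% to 19.8% and 3.63% to 5.51%. The mean log2 ratio of the knockouts differed from that of wild type by -5.62, -5.03 and -8.07, where the knockout libraries had SDs of 0.47, 0.28 and 0.29 (n = 4). These differences have no test of their own, since wild type is 1 library. The summed level of a pair, which does depend on the column scaling, moved less than its composition on the deposited scale. Cox6b2 and Cox6b1 together were 1434 in wild type and 426 to 614 in the knockouts. Cox7b2 and Cox7b together were 187 and 136 to 241, and Cox8c and Cox8a 1508 and 542 to 777.

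**Figure D1:**
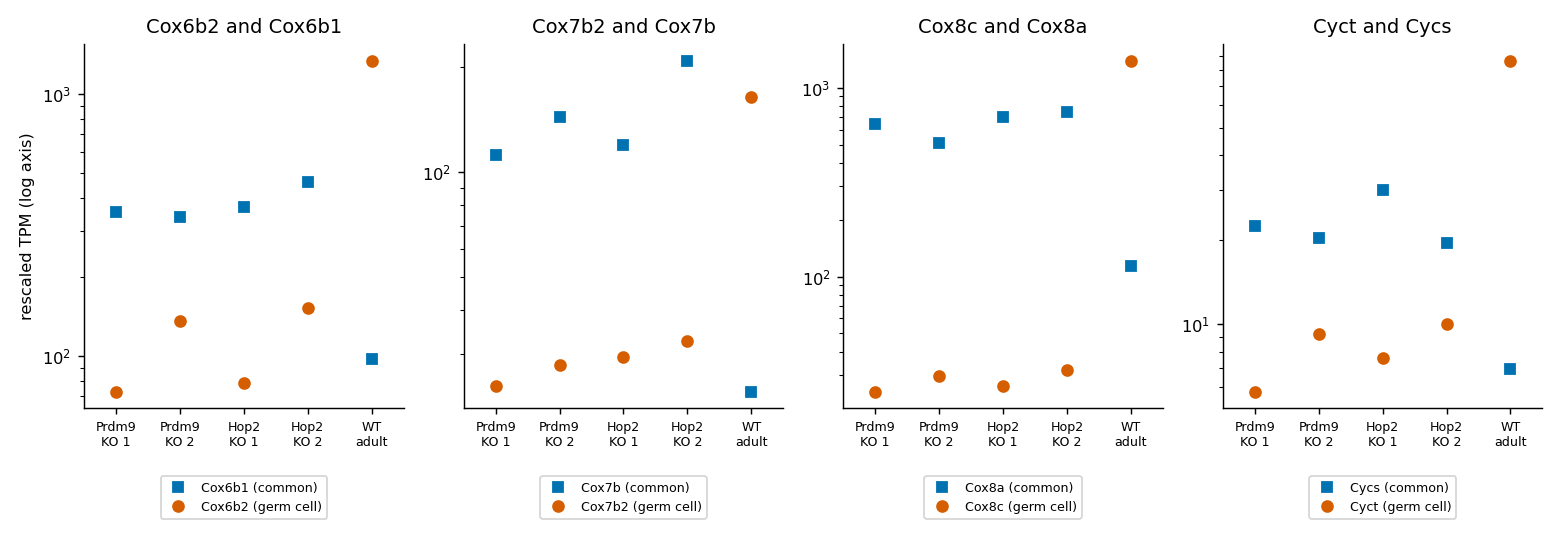
Level in rescaled TPM (log axis) of 4 germ cell genes (circles) and their common counterparts (squares) in each of the 5 mRNA libraries. The circle lies above the square in the wild-type library and below it in every knockout library of each pair.

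The germ cell subunits differed among themselves in how much remained in the knockouts. Cox7b2 stood at 14.8% to 19.9% of its wild-type level, Cox6b2 at 5.45% to 11.4% and Cox8c at 1.76% to 2.29%. Cyct stood at 6.66% to 11.6%. Over the same libraries the spermatid markers ranged from 0 to 0.116% of wild type, except Spaca1 at 3.75% to 4.94%. The pachytene markers ranged from 0.00326% to 1.39%, except Hspa2 at 8.25% to 9.66%. Hspa2, a heat shock protein gene, made up 90.7% to 95.2% of the summed pachytene markers in the knockouts. Cox7b2 stood above every one of these 18 markers in each library, Cox6b2 was below Hspa2 in replicate 1 of both genotypes, and Cox8c was below both Hspa2 and Spaca1 in each. Together the 3 made up 37.8% of the summed germ cell and common subunits of complex IV in wild type and 1.97% to 3.602% in the knockouts.

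Carriers and exchangers that work with the chain, which the naming rule does not include, had the same arrangement for cytochrome c and not for the exchanger of ADP and ATP. Cyct was 5.77, 9.21, 7.57 and 10.0 in the knockouts against 86.5 in wild type (log2 -3.28, adjusted p = 0.00209), and Cycs 22.4, 20.2, 30.0 and 19.5 against 6.96 (log2 1.57, adjusted p = 0.0106). Slc25a31, a male germ cell exchanger of ADP and ATP, was 45.8, 38.5, 49.5 and 37.2 against 38.2, so its groups overlapped (log2 0.15, adjusted p = 0.552). Its common counterpart Slc25a4 was 199, 188, 237 and 253 against 45.2 (log2 2.24, adjusted p = 0.000295), and the log2 ratio of the pair differed by -2.09. With the columns rescaled to the same total, or quantile normalization, Slc25a31 was higher in the knockouts (adjusted p = 0.0198 and 0.0322).

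Of the other members of complex IV, the common subunits went both ways. Ndufa4, once assigned to complex I and now to complex IV, was 215, 228, 265 and 258 in the knockouts and 39.8 in wild type, with no overlap (log2 2.57, SE 0.09, limma adjusted p = 0.000184). Its relative Ndufa4l2, known to be induced by hypoxia, went the other way: it was 2.72, 2.53, 3.603 and 2.44 in the knockouts and 99.2 in wild type (log2 -4.72, SE 0.22, adjusted p = 0.00035). In the annotation Ndufa4l2 overlaps Shmt2, and Cox7a2, described next, overlaps Tmem30a and Gm51685. No source used here says how strand was counted. Cox7a2, the widely expressed form of subunit 7a, was 191, 178, 240 and 259 against 704 (log2 -1.71, SE 0.11, adjusted p = 0.000847). Its heart and muscle form Cox7a1 was 72.5, 39.2, 82.6 and 61.5 against 5.40 (log2 3.29, SE 0.41, adjusted p = 0.00421). Unlike the germ cell pairs, this pair had its common form lower and its tissue form higher in the knockouts.

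Muscle cells were checked for beside Cox7a1. Of 11 skeletal and cardiac muscle markers only 3 reached the mean needed for testing, and their sum was 0.00151% to 0.00253% of the library total in the knockouts and 0.000569% in wild type. The myosin genes Myh6 and Myh7 were higher and the creatine kinase gene Ckm was lower in the knockouts (log2 1.58, 1.51 and -1.56), while Acta1, Mb and Tnnt3 stayed at or below 0.3604 in every library, Tnnt3 being listed at 0 in wild type. Of 5 smooth muscle markers 2 were higher, Acta2 and Myh11, and 1 lower, Actg2. In all, 4 of the 5 had a positive log2 change (median 0.92), and Actg2 alone was negative, at -6.6. The sum of the 5 was nevertheless lower in the knockouts, at 0.0181% to 0.0395% of the library total against 0.05535% in wild type. The sum therefore does not stand for most of this list. The other heart and muscle forms were low everywhere: Cox6a2 lay between 0.784 and 1.81 over all libraries, and Cox8b lay between 0.0355 and 0.285 in the knockouts, was listed at 0 in wild type and was too low to be tested. Cox4i2, a form found in lung, was 1.37, 1.36, 1.67 and 1.82 against 1.29 (log2 0.15, adjusted p = 0.112). Cox4i2 passed as higher under the 3 other scalings (log2 0.30 to 0.89), and Cox6a2 with columns rescaled or quantile normalized (log2 0.82 and 1.07).

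Among the remaining common subunits of complex IV, Cox6a1, the member of highest level in every knockout library, was 1872, 1284, 1991 and 1733 against 694 in wild type (log2 1.29, SE 0.32, adjusted p = 0.0266). It missed the threshold without either Hop2 KO library (adjusted p = 0.093 and 0.0831). Cox4i1, the common form of the largest nuclear-encoded subunit, was 876, 791, 935 and 950 against 919.9, and its groups overlapped (log2 -0.05, adjusted p = 0.782). Its sign turned under each of 3 other scalings of the columns, and it passed as higher in 2 of them. Cox5a had a log2 change of -0.82 (adjusted p = 0.00905), and its sign also turned under 2 scalings. In all, 5 of 12 common subunits rose and 2 fell, where 36.3% of all 16261 genes tested rose and 40.5% fell.

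The order of levels within the chain differed accordingly. In wild type the 3 members of highest level were Cox8c (1394), Uqcrq (1367) and Cox6b2 (1337). In the mean of the knockouts Cox6a1, Atp5b and Cox4i1 led, and Cox6b2 stood at place 67 and Cox8c at place 83 of 93. The median member was at 192 in wild type and at 171 to 206 in the knockouts, so these ranges overlapped on the deposited scale. With 1 wild-type library, neighbours in its order cannot be told apart.

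**Figure D2:**
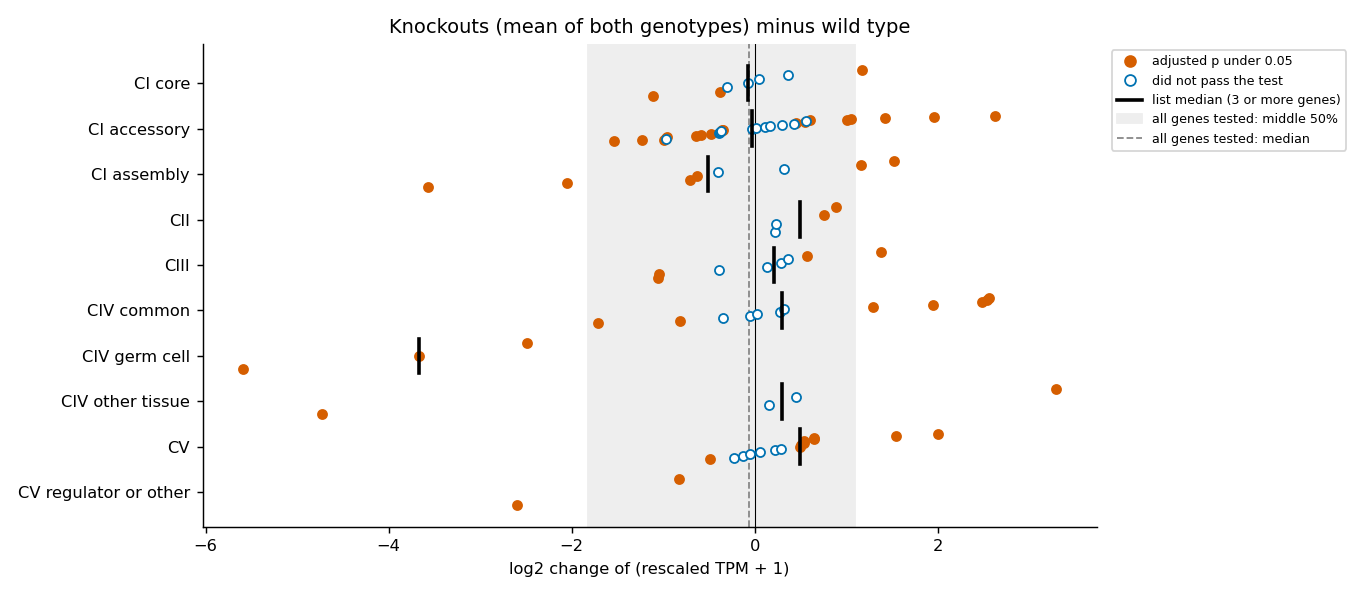
Log2 change of each tested member between the knockouts (mean of both genotypes) and wild type, by complex (CI to CV). Filled points passed at an adjusted p under 0.05. The 3 germ cell subunits of complex IV lie at -2.49, -3.67 and -5.59, left of the middle 50% of all genes tested, and most other members lie within it.

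Over all members, 29 of 92 tested genes were higher and 27 lower in the knockouts than in wild type. Of all genes tested, 36.3% were higher and 40.5% lower, and the members' counts are not above these shares. The members' median log2 change was 0.125 against -0.065 over all genes tested. Wild type lay above all 4 knockout libraries for 35 of the 93 members, below them for 44 and between them for 14. Over all genes tested, wild type lay outside the range of the knockouts for 91.2%.

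These counts depended on how the libraries were scaled. With each column rescaled to 1000000, 66 members were higher and 10 lower (50.9% and 29.1% of all genes). Quantile normalization gave 69 and 8 (50.1% and 31.0%) and median-ratio scaling 44 and 19 (40.6% and 36.4%). Over all genes the median became 0.679, 0.597 and 0.167, from -0.065 as deposited, and the members' median lay above that median by 0.183 to 0.446 in all 4 scalings. The sign of 29 members differed between scalings. In every one of the 4 scalings 29 members passed as higher (36.3% of all genes) and 8 as lower (28.4%). The 8 were Cox8c, Cox6b2, Cox7b2, Ndufa4l2, Cox7a2, Ndufaf2, Ndufaf3 and Atp5s, an ATP synthase coupling factor named here after its value was seen (108 in wild type, 14.8 to 20.3 in the knockouts).

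**Figure D3:**
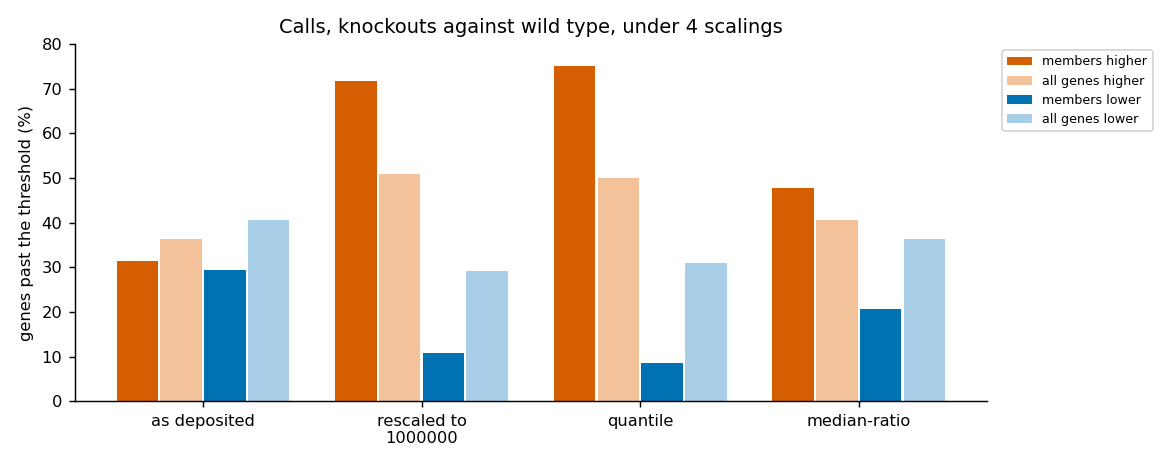
Percent of genes higher and lower in the knockouts at an adjusted p under 0.05, for members (dark bars) and all genes tested (light bars), under 4 scalings of the columns. Of the 92 members 27 are lower as deposited, 10 with columns rescaled to 1000000 and 8 with quantile normalization.

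Complex I takes electrons from NADH and is the largest complex. Of its 7 core subunits 1 rose and 2 fell (median log2 -0.07). The counts by complex given here and below stand against the same shares of all genes, 36.3% higher and 40.5% lower, and with so few genes in a list nothing is read from them. Ndufs8, which holds iron-sulfur clusters, was 208, 168, 220 and 206 in the knockouts and 87.8 in wild type (log2 1.18, adjusted p = 0.005). Ndufv2, also an iron-sulfur subunit, was 141, 106, 141 and 136 against 283 (log2 -1.11, adjusted p = 0.00923), and lost its call when columns were rescaled (log2 -0.25, adjusted p = 0.233). Ndufv1, which binds NADH, had a log2 change of -0.38 (adjusted p = 0.044), lost its call without any 1 of 3 knockout libraries and turned positive under 2 scalings. Ndufs7 was at 0.36 (adjusted p = 0.0543) and passed as higher under the 3 other scalings (log2 0.63 to 1.42).

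Of 29 accessory subunits of complex I 8 rose and 10 fell (median -0.03), which is not above the 36.3% and 40.5% of all genes. Ndufb11, on the X chromosome, rose most, with 189, 139, 209 and 183 against 27.9 in wild type (log2 2.63, SE 0.21, adjusted p = 0.00139). Ndufa1, also X-linked, was 406, 530.4, 408 and 713 against 127 (log2 1.97, SE 0.39, adjusted p = 0.0145). At the other end, Ndufa12 was 160.3, 178, 186 and 223 against 539 (log2 -1.53, adjusted p = 0.00234) and Ndufa13 was 156, 134, 179.8 and 185 against 381 (log2 -1.23, adjusted p = 0.00247). With quantile normalization both kept a negative sign but did not pass (-0.38 and -0.08). Ndufa13 overlaps Tssk6 in the annotation, and how strand was counted is not known.

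Of 8 assembly factors of complex I, 2 rose and 4 fell, and their median was -0.51. Ndufaf3 was 63.5, 52.0, 58.9 and 66.3 in the knockouts and 723 in wild type, where it was the sixth highest member (log2 -3.57, SE 0.16, adjusted p = 0.000316). Ndufaf2 was 23.6, 32.4, 32.0 and 36.1 against 129.9 (log2 -2.05, adjusted p = 0.00256). Ndufaf6 (log2 1.53, adjusted p = 0.00334) and Ndufaf4 (log2 1.17, adjusted p = 0.0038) rose from low levels of 3.30 and 4.22 in wild type. The summed assembly factors took 0.0724% of the library total in wild type and 0.0349% to 0.039% in the knockouts.

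Transcript shares within genes moved less. Of 67 members with at least 2 transcripts at a mean of 1 or more, none had a change of 25 percentage points in the share of the transcript that led in wild type, without overlap. Of all 9152 such genes 20.9% had one. The members nearest to that size were Atp5s (-22.7 points) and Ndufaf3 (-22.4 points), and Ndufaf3 was the only one of the 67 whose leading transcript differed between wild type and the mean of the knockouts. In Ndufaf3 the leading wild-type transcript (ENSMUST00000074208) made up 61.0% of the gene in wild type and 36.9%, 41.1%, 43.7% and 32.6% in the knockouts. The value of this transcript was 441 in wild type and 21.4 to 25.7 in the knockouts, and the transcript that led in the mean of the knockouts (ENSMUST00000194381) was 257 and 22.4 to 32.3.

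Complex II, succinate dehydrogenase, also works in the citrate cycle and is encoded in the nucleus alone. All 4 subunits had higher means in the knockouts, and 2 passed. Sdhd, a membrane anchor, was 162, 135, 176 and 150.1 against 83.1 (log2 0.89, adjusted p = 0.0121). Sdhc, the other anchor, was 220.5, 179, 218 and 219 against 122 (log2 0.76, adjusted p = 0.0149), and missed the threshold without either Hop2 KO library. Sdha and Sdhb, the catalytic subunits, had log2 changes of 0.23 and 0.22 (adjusted p = 0.264 and 0.0991), and both passed as higher under the 3 other scalings.

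Complex III hands electrons to cytochrome c. Of its 8 subunits 2 rose and 2 fell (median 0.21). Uqcr11 was 676, 533, 749 and 748 against 257 in wild type (log2 1.38, adjusted p = 0.00534), and Uqcrh, the hinge protein, 249, 215, 300.1 and 293 against 176 (log2 0.58, adjusted p = 0.0193). Uqcrh missed the threshold without either Hop2 KO library. Uqcrq, which overlaps Gdf9 in the annotation, was 624, 567, 712 and 748 against 1367 (log2 -1.05, adjusted p = 0.00686). Uqcrc1, a core subunit, was 179.7, 153, 176 and 174 against 353 in each of its 2 records (log2 -1.05, adjusted p = 0.00393). Neither fall held when columns were rescaled (log2 -0.18 each, adjusted p = 0.275 and 0.209), and Uqcrc1 turned positive with quantile normalization.

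In complex V 8 of 15 subunits rose and 1 fell (median 0.50), beside 36.3% and 40.5% of all genes. Atp5g1, Atp5g2 and Atp5g3 encode the same ring subunit. Atp5g3 was 642, 572, 761 and 725 in the knockouts and 166 in wild type (log2 2.01, SE 0.14, adjusted p = 0.000971), Atp5g2 was 22.9, 26.5, 37.0 and 28.2 against 8.99 (log2 1.55, adjusted p = 0.00479), and Atp5g1 was at 0.54 (adjusted p = 0.0407). Atp5j, the coupling factor of the stalk, was 188, 177, 216 and 228 against 282 (log2 -0.49, adjusted p = 0.0164), missed the threshold without either Hop2 KO library (adjusted p = 0.0631 and 0.0535) and passed as higher when columns were rescaled. Atp5o, also of the stalk, overlapped between groups (log2 -0.23, adjusted p = 0.321).

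Shares of the library total do not change when a whole column is multiplied by a factor. All members together took 1.60% of the total in wild type and 2.69%, 2.49%, 2.86% and 2.75% in the knockouts. Complex I took 0.509% in wild type and 0.786% to 0.877% in the knockouts, complex II 0.0334% and 0.084% to 0.0881%, complex III 0.191% and 0.288% to 0.353%, and complex V 0.304% and 0.635% to 0.736%. The common subunits of complex IV took 0.294% and 0.625% to 0.737%. The germ cell subunits went the other way, with 0.178% in wild type and 0.0139% to 0.0234% in the knockouts. For each of these sums wild type lay outside the range of the knockouts, as it did for 91.2% of all single genes tested. The mean knockout share of all members was 1.69 times the wild-type share, and 1.55 times with the spermatid markers left out of each total.

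**Figure D4:**
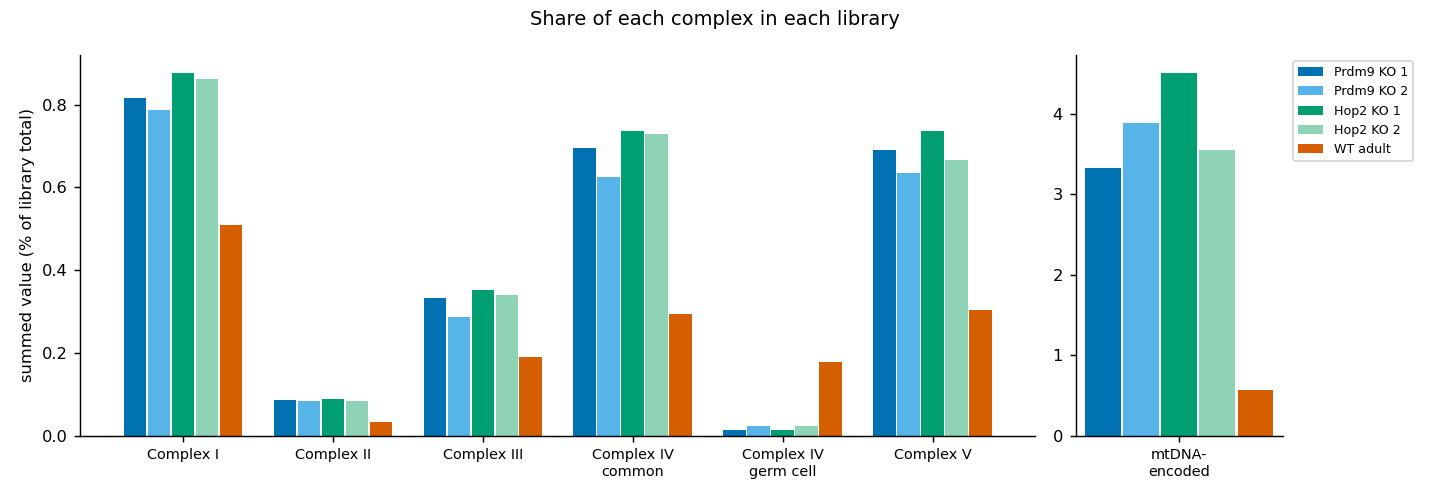
Summed rescaled TPM of each complex as a percent of its library's total, for the 4 knockout libraries and wild type. The right panel, on its own axis, shows the 13 genes of mtDNA. Wild type is lowest in every set except the germ cell subunits, where it is highest.

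The subunits encoded by mtDNA took 0.573% of the total in wild type and 3.32% to 4.51% in the knockouts. All 13 had a positive change and 8 passed as higher (median log2 1.59). Of all 16261 genes tested, 7926 had a positive change and 36.3% passed as higher. Cytochrome c oxidase subunit 2, mt-Co2, was 642, 1548, 1295 and 1450.0 against 139.9 (log2 3.05, SE 0.55, adjusted p = 0.0116). Subunit 1, mt-Co1, was 3475, 6460, 3986 and 6589 against 2145 (log2 1.20, SE 0.65, adjusted p = 0.169), and passed with columns rescaled (log2 2.07, adjusted p = 0.039) or quantile normalized (adjusted p = 0.0235). Replicate 2 of each genotype had more mt-Co1 than replicate 1, and the groups still did not overlap.

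Regulators and other assembly factors of the chain went both ways. Tfam encodes a protein that packages mtDNA and takes part in its transcription. Its level was 13.5, 14.1, 16.4 and 15.8 in the knockouts and 260.0 in wild type (log2 -4.04, SE 0.10, adjusted p = 6e-05). Pprc1, a coactivator of mitochondrial genes, rose (log2 1.18, adjusted p = 0.00153). In that list 4 of 13 genes rose and 6 fell, and of 38 other assembly factors 18 rose and 11 fell (all genes 36.3% and 40.5%). Lyrm7, which helps to insert the iron-sulfur protein of complex III, was 1.00, 0.988, 0.944 and 1.21 against 62.4 (log2 -4.96, adjusted p = 6.4e-05), and Sco2, a copper chaperone of complex IV, was 8.32 to 11.97 and listed at 0 in wild type.

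Of 18 genes of pyruvate entry and the citrate cycle 7 rose and 7 fell (all genes 36.3% and 40.5%). Pdha2, the germ cell form of the pyruvate dehydrogenase alpha subunit, was 26.4, 27.0, 35.6 and 26.4 against 219.8 (log2 -2.90, adjusted p = 0.000878), and its common form Pdha1 was 29.8, 29.2, 32.4 and 27.4 against 5.99 (log2 2.13, adjusted p = 0.000823). Idh3g, a regulatory subunit of isocitrate dehydrogenase, had the highest change of that list (log2 2.15, adjusted p = 0.00205). Of 9 carriers and exchangers 5 rose and 3 fell (same shares of all genes), with Slc25a5, an exchanger of ADP and ATP, highest at 2.66 (adjusted p = 0.00156).

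Members on the X chromosome, which is silenced in male meiosis, were compared with the autosomal ones. The 3 X-linked members, Ndufb11, Ndufa1 and Cox7b, all rose in the knockouts, with log2 changes from 1.97 to 2.63 (median 2.54). Of 739 X-linked genes tested, 62.1% rose and 23.7% fell (median 1.25). Of 89 autosomal members 26 rose and 27 fell (median 0.06), where 36.1% of 14330 autosomal genes rose and 40.7% fell. When columns were rescaled, the 3 X-linked members lay between 2.83 and 3.47, and 63 autosomal members were higher and 10 lower (51.4% and 28.6% of autosomal genes). Ndufb11 and Ndufa1 overlap other genes in the annotation, Rbm10 and Rnf113a1.

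The 2 knockouts were compared with wild type one at a time, which shares the wild-type library. In Prdm9 KO 24 members rose and 31 fell (34.6% and 39.4% of all genes, 74.1% in either direction), and in Hop2 KO 34 rose and 21 fell (35.0% and 39.5%, together 74.5%). The germ cell subunits had log2 changes of -3.74 (Cox6b2), -2.61 (Cox7b2) and -5.63 (Cox8c) in Prdm9 KO, and of -3.60, -2.37 and -5.54 in the other genotype. Without either Hop2 KO library, 15 members were higher for Prdm9 KO, while for Hop2 KO 19 were higher and 13 lower.

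Between Prdm9 KO and Hop2 KO no member passed (0 of 92 by limma, against 0.0139% of 14358 genes), and 9 members had an unadjusted p under 0.05, where 3.10% of all genes did. That count moved to 2 with columns rescaled or quantile normalized, to between 1 (without Prdm9 KO replicate 2) and 15 (without Prdm9 KO replicate 1) when 1 library was left out, being 2 without either Hop2 KO library, and to 32 with a replicate block. A lower mean in Prdm9 KO was found for 91 of 92 members and for 57.8% of all genes, and for the members the median difference was -0.245, against -0.0348 over all genes tested. Atp5b, the catalytic beta subunit of the ATP synthase, was the exception, at 0.06. Members share libraries and are not independent, so the count has no test. With columns rescaled, quantile normalized or scaled by median ratio 82, 84 and 89 members were negative (33.3%, 52.4% and 52.1% of all genes), and their median stayed below that of all genes (-0.13 against 0.08, -0.14 against -0.01, and -0.22 against -0.01).

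The members of smallest unadjusted p were Ndufb2, Cox7a2 and Ndufb6. Ndufb2, a complex I accessory subunit, was 104 and 95.8 (Prdm9 KO) against 135 and 135 (Hop2 KO) (log2 -0.43, SE 0.11, limma unadjusted p = 0.0127, adjusted p = 0.972). Cox7a2 was 191 and 178 against 240 and 259 (log2 -0.43, SE 0.12, unadjusted p = 0.0181). Ndufb6 was 122 and 121 against 147 and 156 (log2 -0.32, SE 0.11, unadjusted p = 0.0374). The groups did not overlap for any of the 3, but the genes were picked by this same comparison, so this adds no support. In the authors' deposited table of a gene test, which does not name the groups compared, 30 of the 93 members had p under 0.05, as had 3.93% of its 21276 genes, and the smallest q of a member was 1. Cox7a2 and Ndufb2 had the smallest p of the members there. That test may use the same libraries, so its order adds no support either.

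**Figure D5:**
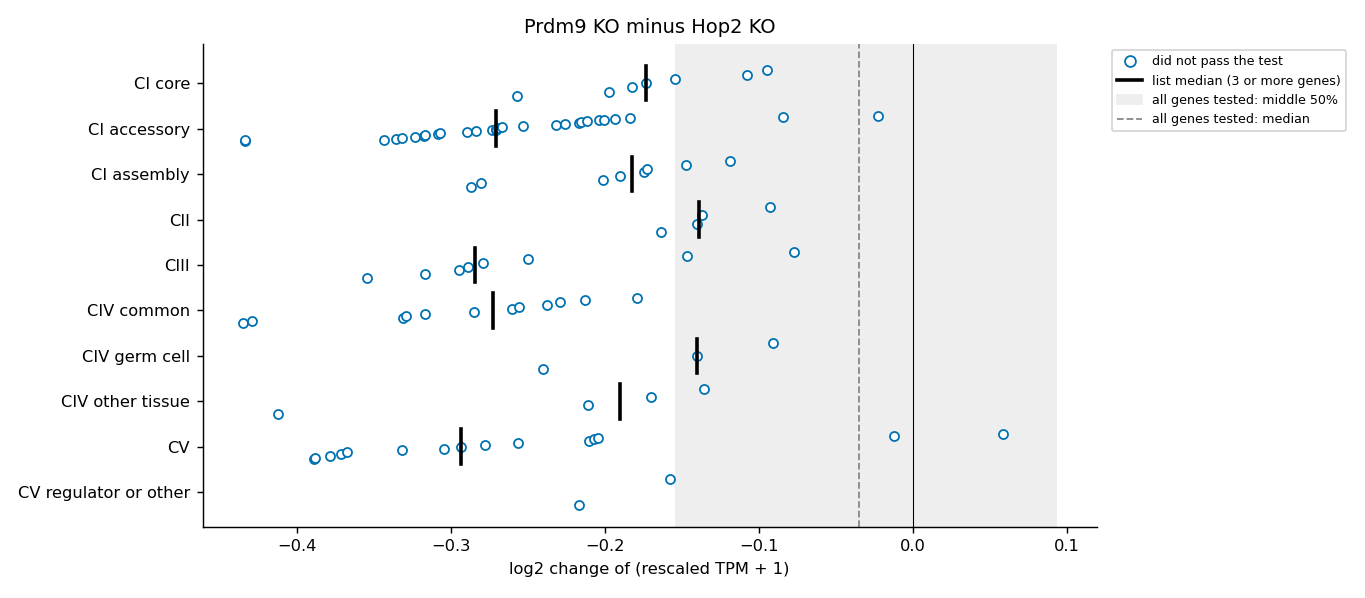
Log2 difference of each tested member between Prdm9 KO and Hop2 KO, by complex. No member passed the test, and all but 1 of the 92 points lie left of 0, with list medians between -0.14 and -0.29.

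Marker lists went both ways between these genotypes, no marker passing. All 7 spermatid markers tested had negative differences (median -0.73), and their sum was 0.0019% and 0.00263% of the total (Prdm9 KO) against 0.0019% and 0.00542% (Hop2 KO). All 7 macrophage markers and all 5 smooth muscle markers had negative differences (medians -0.28 and -0.33), as had 7 of 8 Sertoli markers (median -0.11), while all 4 pachytene markers tested were positive (median 0.27) and Leydig markers were mixed (median -0.02). Of all genes, 57.8% had a negative difference as deposited and 33.3% with columns rescaled. The marker differences are given on the deposited scale only. The macrophage sum was 0.0813% and 0.0557% (Prdm9 KO) against 0.0898% and 0.0712% (Hop2 KO), and the smooth muscle sum 0.0327% and 0.0181% against 0.0395% and 0.0226%. Their part in the lower member values was not tested.

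Promoters are shown for 6 members, because break sites in Prdm9 (K/K) testis and sequence motifs could be placed on them: a germ cell subunit with its common counterpart (Cox6b2, Cox6b1), a second germ cell subunit (Cox7b2), a common subunit that rose (Cox8a), and a pair that share a motif of the transcription factor NRF1 but went opposite ways on the deposited scale (Cox6a1 higher, Uqcrc1 lower). The fall of Uqcrc1 did not hold with columns rescaled or quantile normalized, nor the rise of Cox6a1 without either Hop2 KO library. Each runs from 250 bases before to 50 bases after the transcription start, from RefSeq (GRCm38.p6), read 5′ to 3′ on the gene's strand. Capitals mark a motif found on either strand. They are the palindromic NRF1 motif in Cox6a1 and Uqcrc1, and the ETS motif, in reverse complement, at both places in Cox8a. Here and below, a motif was counted only where the bases matched those in capitals exactly, on either strand.
Cox6b2: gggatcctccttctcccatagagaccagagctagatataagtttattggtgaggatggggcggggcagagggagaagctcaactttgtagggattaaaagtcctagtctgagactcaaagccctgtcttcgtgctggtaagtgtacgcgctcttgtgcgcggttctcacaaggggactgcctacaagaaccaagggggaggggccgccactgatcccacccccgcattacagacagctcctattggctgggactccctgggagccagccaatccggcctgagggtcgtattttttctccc
Cox6b1: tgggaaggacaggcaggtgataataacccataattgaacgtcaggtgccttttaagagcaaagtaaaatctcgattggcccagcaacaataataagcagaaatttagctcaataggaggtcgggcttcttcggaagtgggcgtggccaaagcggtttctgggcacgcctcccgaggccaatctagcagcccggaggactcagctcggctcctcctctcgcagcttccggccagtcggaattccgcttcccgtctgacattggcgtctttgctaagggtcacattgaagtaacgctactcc
Cox7b2: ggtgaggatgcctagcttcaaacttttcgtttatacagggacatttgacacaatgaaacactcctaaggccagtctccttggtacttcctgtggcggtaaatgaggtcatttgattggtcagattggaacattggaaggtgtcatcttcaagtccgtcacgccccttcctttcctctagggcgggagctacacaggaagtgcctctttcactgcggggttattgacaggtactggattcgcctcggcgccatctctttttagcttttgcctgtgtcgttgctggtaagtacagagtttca
Cox8a: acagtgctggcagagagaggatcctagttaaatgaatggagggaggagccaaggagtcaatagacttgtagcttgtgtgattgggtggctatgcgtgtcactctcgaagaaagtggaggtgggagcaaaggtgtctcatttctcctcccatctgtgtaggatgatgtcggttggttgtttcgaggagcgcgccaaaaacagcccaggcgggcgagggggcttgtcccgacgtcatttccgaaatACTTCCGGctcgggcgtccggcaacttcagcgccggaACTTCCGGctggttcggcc
Cox6a1: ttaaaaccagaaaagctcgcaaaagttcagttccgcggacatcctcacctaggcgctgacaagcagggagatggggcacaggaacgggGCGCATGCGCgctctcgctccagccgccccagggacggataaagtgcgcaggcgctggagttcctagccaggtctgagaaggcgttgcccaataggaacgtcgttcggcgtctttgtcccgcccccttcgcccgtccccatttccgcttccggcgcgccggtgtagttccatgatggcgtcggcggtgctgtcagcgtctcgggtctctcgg
Uqcrc1: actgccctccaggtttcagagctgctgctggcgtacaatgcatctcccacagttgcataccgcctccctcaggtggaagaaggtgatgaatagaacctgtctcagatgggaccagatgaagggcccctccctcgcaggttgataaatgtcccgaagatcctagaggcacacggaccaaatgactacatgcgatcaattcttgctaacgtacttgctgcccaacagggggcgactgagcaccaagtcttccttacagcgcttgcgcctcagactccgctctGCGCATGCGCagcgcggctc
Cox6b2 lies at chr7:4753045-4753344, Cox6b1 at chr7:30626065-30626364, Cox7b2 at chr5:71548156-71548455, Cox8a at chr19:7217567-7217866 and Cox6a1 at chr5:115348909-115349208, all on the minus strand, and Uqcrc1 at chr9:108936398-108936697 on the plus strand. No exact match to either motif was found in the windows of Cox6b2, Cox6b1 and Cox7b2. Near variants of the motifs were not counted, so these windows are not shown to lack sites for the same factors. No entry was used for Cox8c.

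A promoter entry was used for 77 of the 93 members (82.8%). The NRF1 motif stood in 7 of them (9.09%), those of Atp5g2, Atp5k, Cox6a1, Ndufa11, Ndufaf4, Ndufaf5 and Uqcrc1, against 1.07% of 27025 genes with an entry and 2.10% of the 11863 that were also tested. NRF1 is a known activator of nuclear genes of the respiratory chain. Of the 7 genes 4 rose in the knockouts, 1 fell and 2 did not pass. The ETS motif, bound by GABP among others, stood in 5 members (6.49%), against 4.31% and 8.13%. The message of Nrf1 was 44.1, 43.9, 41.2 and 38.3 in the knockouts and 40.8 in wild type (log2 0.03, limma adjusted p = 0.751), and it passed as higher with columns rescaled (log2 0.88) or quantile normalized (log2 0.62). The 2 subunits of GABP went opposite ways. Gabpa had a log2 change of 0.70 (adjusted p = 0.0206) and passed as higher in all 4 scalings. Gabpb1 was 20.1 to 22.1 against 34.2 (log2 -0.68, adjusted p = 0.00864), missed the threshold with rescaling or quantile normalization, and was positive with rescaling (log2 0.16). The medians of GC content were 58.3% for members and 60.0% for all tested genes.

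Double-strand breaks were read from 17731 peaks of single-stranded DNA that the authors called in 1 Prdm9 (K/K) testis library, so this comparison has no replicate. At least 1 start of 59 of the 77 members (76.6%) lay within 1000 bases of a peak, against 62.5% of the 11863 tested genes. With a distance of 0 or of 5000 bases 59 members counted again, against 60.9% and 65.3% of genes. Of members with an entry, 22 of 24 called lower in the knockouts on the deposited scale had a peak, and 19 of 26 called higher. So had 18 of 27 others, which did not pass or, for Cox8b, were not tested. Shares of all genes by direction were not computed, and fewer members were lower under the other scalings, so nothing is read from this split. Among the pairs, Cox6b2 had a peak at its start (chr7:4752396-4753462) and Cox6b1 had none, while Cox7b2 (chr5:71547010-71549389) and Cox7b (chrX:106014852-106016952) both had one. Cox8a had one (chr19:7216625-7218325), as had Ndufaf3, Ndufa4, Cox7a2 and Uqcrc1. Cox7a1, Atp5g2 and Ndufs8 had none.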

How the data were processed

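Genes were chosen by the naming rule given above, and lists of complexes, carriers, assembly factors, regulators and cell type markers came from textbook knowledge. The members and lists were chosen with earlier results of these data known. The mRNA libraries went through CASAVA, kallisto and sleuth (builds GRCm38 and mm10) and the break library through MACS2 2.1.0.20150420, per the submitters' processing notes. No source used here gives the other versions, the transcript set or the strand setting. The deposited gene and transcript values are a signal that the authors called TPM, per the file headers. A deposited table of the authors' gene test holds p-values and q-values.

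Values were tested with limma 3.58.1 (R 4.3.3, intensity trend) on log2(value + 1) for genes whose mean over the libraries in the fit was 1 or more. All 5 libraries entered the comparisons with wild type, with "both knockouts" the mean of the 2 genotype means, and 4 the comparison of knockouts. The fit was checked on simulated data. Named genes follow a rule: all tissue forms of complex IV and their common counterparts, X-linked members, complex II, the 2 highest and 2 lowest changes of each other list, for the comparison of knockouts the 3 smallest unadjusted p, and the highest and lowest of each context list with the pairs Cyct and Cycs, Slc25a31 and Slc25a4, and Pdha2 and Pdha1. Genes named outside it, such as Atp5s, Atp5g1, Atp5e, Atp5k, Cox7a2l, Ndufs3, Ndufa11, Ndufaf5, Atp5b, Nrf1, Gabpa, Gabpb1 and the marker genes, were chosen after their values were seen. All 93 members matched RefSeq, and 30 of them overlap another gene there, among them Ndufv2 with Ankrd12 and Atp5j with Gabpa. Reads shared with overlapping genes or near-identical pseudogenes could shift a value. Alternatives were pseudocounts of 0.1 and 5, no filter, a minimum mean of 5, 3 scalings, no trend, leaving out each knockout library, a replicate block, other peak distances and spermatid markers left out of totals. The number of unused per-sample columns was 0.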

Additional observations from a re-analysis of the deposited data

Results flagged for a closer look

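In 4 of the 92 tested members both Prdm9 KO libraries lay below wild type and both Hop2 KO libraries above it. Over all 16261 genes tested, 0.676% had both libraries of 1 knockout below wild type and both of the other above. The pattern depended on the scaling: with columns rescaled, quantile normalized or scaled by median ratio 1, 2 and 1 members had it, and with rescaling the 4 genes named here were higher in the knockouts than in wild type (log2 0.82 to 0.91). Cox4i1 was 876 and 791 (Prdm9 KO), 935 and 950 (Hop2 KO), and 919.9 in wild type, and the knockouts differed by -0.18 on the log2 scale (limma unadjusted p = 0.316). Cox7a2l, related to subunit 7a, was 143 and 125, 160.3 and 166, and 145 (difference -0.28, unadjusted p = 0.0758). Ndufs3, a complex I core subunit, was 81.5 and 76.8, 92.3 and 97.1, and 83.5 (-0.26, unadjusted p = 0.0686). Atp5e, a small ATP synthase subunit, was 515 and 432, 675 and 566, and 558 (-0.39, unadjusted p = 0.0824). The adjusted p of the difference was 0.972 for each, so none passed.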

How the results depend on the processing

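Counts against wild type depended mostly on the scaling of the columns. With columns rescaled to 1000000, members higher and lower numbered 61 and 10 (Prdm9 KO), 66 and 9 (Hop2 KO) and 66 and 10 (both). With quantile normalization they numbered 66 and 8, 69 and 8, and 69 and 8, and with median-ratio scaling 44 were higher for both. Signs turned positive with rescaling for Cox4i1 (0.82), Ndufv1 (0.49), Cox5a (0.0545), Atp5j (0.38) and Atp5o (0.64), with quantile normalization for Cox4i1 (0.89), Ndufv1 (0.73), Uqcrc1 (0.10), Cox5a (0.25), Atp5j (0.63) and Atp5o (0.89), and with median-ratio scaling for Cox4i1 (0.21) and Atp5o (0.038). Leaving out 1 knockout library gave 15 to 19 higher and 21 to 27 lower for Prdm9 KO, 19 to 31 and 13 to 19 for Hop2 KO, and 19 to 31 and 20 to 25 for both, the lowest counts of higher members without a Hop2 KO library. The wild-type library could not be left out. Between the knockouts, members at an unadjusted p under 0.05 numbered 2 with rescaling, 2 with quantile normalization, 5 without the intensity trend and 18 with all 5 libraries in the fit. Leaving out 1 library gave 1 (without Prdm9 KO replicate 2) to 15 (without Prdm9 KO replicate 1), and 2 without either Hop2 KO library. The adjusted count was 0 in each of these. With a replicate block 32 had an unadjusted p under 0.05 and 0 passed. The labels do not pair the libraries, and the replicate differences of the 2 genotypes correlated at 0.413 over genes. With a pseudocount of 5 the log2 ratio differences were -4.70 for Cox7b2 and Cox7b and -4.03 for Cyct and Cycs. With spermatid markers left out of the totals, the knockout share over the wild-type share was 1.51 for complex I, 0.467 for its assembly factors, 2.36 for complex II, 2.18 for common complex IV, 2.07 for complex V and 1.55 for all members. The cause of the changes with scaling was not tested. Under the other pseudocounts, filters and no trend, the counts against wild type stayed within 1.5 times. Read depth is unknown, so counting error could not be given.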
